A study of Mus musculus with 93 samples.

Results

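Matrix metalloproteinases (MMPs) are zinc-dependent enzymes that cut collagen and other matrix proteins outside the cell, tissue inhibitors of metalloproteinases (TIMPs) block them, and lysyl oxidases crosslink collagen and elastin into fibres that are harder to cut. The balance between cutting, inhibition, and crosslinking is known to set how scar matrix builds up and is removed in the liver, where activated stellate cells and macrophages are the best known sources of these proteins. Here 10 genes of these families were followed in the liver of 7 mouse strains: the inhibitors Timp1, Timp2, and Timp3, the proteases Mmp2, Mmp7, Mmp13, Mmp14, and Mmp19, and the crosslinking enzymes Lox and Loxl1. They were chosen by symbol, with earlier results of these data known. The part of this choice in the numbers of members called was not tested. Each of the 10 symbols matched 1 of the 53465 genes in the count table, and all 10 were among the 19110 genes with enough reads to be tested.

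Liver RNA was sequenced from 93 male mice of 7 inbred strains: the classical laboratory strains A/J, DBA/2J, C57BL/6J, and 129S1/SvImJ and the wild-derived PWK/PhJ, CAST/EiJ, and WSB/EiJ. All mice were moved to thermoneutrality (TN, 30 °C) at 6 wk of age and were given a control diet (CD, 10% of energy from fat) or a western-style diet (WD, 40% of energy from fat) from 7 wk of age. Livers were taken at 24 wk after 17 wk of diet and a 4-h fast. The 14 groups, written CD-TN and WD-TN, held 8 and 8 C57BL/6J mice, 6 and 7 DBA/2J mice, 5 and 6 A/J mice, 7 and 6 129S1/SvImJ mice, 6 and 6 WSB/EiJ mice, 7 and 8 CAST/EiJ mice, and 6 and 7 PWK/PhJ mice. No engineered allele and no drug is listed for any mouse, and males alone were used.

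Between 40020424 and 49894856 reads fell on genes in each mouse (median 46618609). The 7 hepatocyte markers were detected in every group, with a summed level of 59200 to 212000 CPM (reads per 1000000 reads on tested genes, scaled by trimmed-mean (TMM) factors) per mouse. All libraries were mapped to the C57BL/6J genome, and the mean share of unmapped reads ran from 2.11% in A/J on WD-TN to 13.3% in CAST/EiJ on WD-TN. Its part in differences between strains was not tested. In bulk liver, fewer cells of a type and less RNA per cell cannot be told apart.

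From C57BL/6J 2 libraries stood apart, and from CAST/EiJ 1. C57BL/6J CD-TN replicate 2 and C57BL/6J WD-TN replicate 3 were far above the other 7 mice of their groups in Timp2, Mmp2, Mmp7, and Loxl1. The CD-TN mouse had 77.0 CPM of Timp2 and 32.0 CPM of Mmp2, where the next mouse had 32.8 and 5.84 CPM. The WD-TN mouse had 72.9 CPM of Timp2 and 40.0 CPM of Mmp2, where the next mouse had 35.1 and 11.8 CPM. CAST/EiJ WD-TN replicate 3 was high in Timp1, Lox, and Loxl1. The fitted diet effects of the members high in these mice are given with and without them.

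Levels per length of transcript, in CPM per kilobase of exon, placed Mmp19 at the top in 12 of the 14 groups, with group means of 5.86 to 17.4. Timp2 had group means of 3.20 to 8.22, Mmp14 of 2.95 to 6.61, and Timp3 of 1.40 to 3.97 on the same scale. Mmp2 and Loxl1 lay lower, at 0.411 to 3.22 and 0.182 to 1.98. Lox had means of 0.0449 to 1.04, Mmp13 of 0 to 1.83, and Mmp7 of 0.0276 to 1.66. Timp1 ran from 0.0797 in 129S1/SvImJ on CD-TN to 7.71 in PWK/PhJ on WD-TN. In the latter group Timp1 per kilobase stood level with Mmp19, whose mean was 7.41.

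Mmp13 and Mmp7 share a stretch of chromosome 9. On GRCm38, positions are chrX:20870166-20874735 for Timp1, chr11:118301069-118355740 for Timp2, chr10:86300372-86349506 for Timp3, and chr8:92827291-92853420 for Mmp2. Mmp13 is at chr9:7272514-7283331, Mmp7 at chr9:7692090-7699585, Mmp14 at chr14:54431612-54445364, and Mmp19 at chr10:128790910-128800824. Loxl1 is at chr9:58287738-58313186. Some exons are shared with genes on the opposite strand: 22.3% of the exon bases of Mmp19 with Tmem198b and 6% with Gm47093, 21.3% of those of Timp3 with Syn3, and 11.5% of those of Mmp7 with AV064505. Whether counting used the strand is not given in the sources used here, so reads in those stretches cannot be told apart.

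RefSeq start sites on GRCm38.p6 were at hand for 6 of the 10 members. The 250 bases before the start are shown for Timp1, Mmp7, and Mmp13, which rose on WD-TN in the same strain, C57BL/6J, for Mmp14, which fell there, and for Timp2, which was called in PWK/PhJ alone. They are chrX:20869916-20870165 for Timp1, chr11:118355412-118355661 on the minus strand for Timp2, chr9:7691840-7692089 for Mmp7, chr9:7272264-7272513 for Mmp13, and chr14:54431348-54431597 for Mmp14, each written 5′ to 3′ along its gene. Capitals mark matches on either strand to TGANTCA, the letters bound by AP-1, to AGGAAG, an ETS-type core, and to TATAAA, the TATA box. No capitals of different motifs overlap.
Timp1: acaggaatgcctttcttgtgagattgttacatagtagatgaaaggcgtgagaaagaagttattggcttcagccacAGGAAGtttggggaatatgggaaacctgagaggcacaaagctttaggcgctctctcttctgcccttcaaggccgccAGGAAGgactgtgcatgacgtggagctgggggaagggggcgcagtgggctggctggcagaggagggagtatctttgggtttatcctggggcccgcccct
Timp2: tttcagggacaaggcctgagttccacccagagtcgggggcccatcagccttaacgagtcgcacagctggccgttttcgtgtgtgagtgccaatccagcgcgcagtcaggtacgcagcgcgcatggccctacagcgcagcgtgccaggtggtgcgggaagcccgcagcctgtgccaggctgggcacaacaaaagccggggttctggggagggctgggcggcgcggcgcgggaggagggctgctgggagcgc
Mmp7: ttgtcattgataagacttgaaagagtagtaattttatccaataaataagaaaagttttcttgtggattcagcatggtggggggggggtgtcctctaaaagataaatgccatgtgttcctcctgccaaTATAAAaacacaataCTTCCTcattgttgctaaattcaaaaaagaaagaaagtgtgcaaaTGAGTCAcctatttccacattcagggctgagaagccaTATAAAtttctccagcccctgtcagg
Mmp13: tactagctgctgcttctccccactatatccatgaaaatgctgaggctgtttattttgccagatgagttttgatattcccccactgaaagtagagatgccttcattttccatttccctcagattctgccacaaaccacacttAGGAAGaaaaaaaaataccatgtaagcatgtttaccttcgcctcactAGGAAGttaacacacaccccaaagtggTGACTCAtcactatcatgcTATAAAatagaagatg
Mmp14: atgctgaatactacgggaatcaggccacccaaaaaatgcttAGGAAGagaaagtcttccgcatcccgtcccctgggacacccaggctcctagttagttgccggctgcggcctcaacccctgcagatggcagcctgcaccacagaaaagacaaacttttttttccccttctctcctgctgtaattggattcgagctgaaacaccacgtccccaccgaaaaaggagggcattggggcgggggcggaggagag
Of the 32851 promoter windows in the table, 6.75% hold the AP-1 letters, 29.5% the ETS letters, and 12.4% the TATA letters in these 250 bases. Mmp13 holds AP-1 letters 35 to 29 bases before its start, ETS letters 62 to 57 and 109 to 104 bases before it, and TATA letters at 16 to 11 bases. Mmp7 holds AP-1 letters at 63 to 57 bases, ETS letters on the opposite strand at 108 to 103 bases, and TATA letters at 26 to 21 and at 123 to 118 bases. The Timp1 window has ETS letters at 99 to 94 and at 175 to 170 bases, and the Mmp14 window at 209 to 204 bases. None of the 3 motifs is in the Timp2 window. The RefSeq start of Timp2 lies inside the gene span given above, and so does that window. A second RefSeq start of Mmp7, whose window is not shown, has ETS letters at 142 to 137 bases. These matches describe the letters of the reference genome and are not binding sites.

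To ask how the diet moved these genes in each genetic background, WD-TN was compared with CD-TN within each strain, with limma-voom over all genes and Benjamini–Hochberg adjustment within the strain. A gene rose or fell where its adjusted p was below 0.05. In PWK/PhJ, 7 of the 10 members rose, among 15.1% of all genes tested, and 0 fell, among 14.5%. The count of 0 was the same at an unadjusted p below 0.05, with edgeR, and with DESeq2. The 7 were Timp1, Timp2, Timp3, Mmp2, Mmp13, Lox, and Loxl1.

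In C57BL/6J, 7 rose (Timp1, Timp3, Mmp7, Mmp13, Mmp19, Lox, and Loxl1), among 14.3% of all genes, and 1, Mmp14, fell, among 11.9%. This count depends on the test. With edgeR's quasi-likelihood test and with DESeq2, 3 members rose in C57BL/6J, namely Timp1, Mmp13, and Mmp19, as they did when the strain was fitted alone. In C57BL/6J, cohort 1 held 3 CD-TN and 5 WD-TN mice and cohort 2 held 5 and 3. With cohort as a covariate 4 members rose, and Timp3 (0.31, adjusted p = 0.087), Mmp7 (0.99, 0.32), and Loxl1 (0.50, 0.16) lost their calls. Leaving out the pair of mice that stood apart, a choice made after seeing the data, gave 8 members that rose by limma-voom, with Mmp2 added. Without the pair the log2 fold change was 2.72 for Timp1 (adjusted p = 2e-05), 2.87 for Mmp13 (1.5e-08), −0.43 for Mmp14 (0.0074), 0.45 for Mmp19 (0.00058), and 0.12 for Timp2 (0.49).

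In 129S1/SvImJ, 4 members rose (Timp1, Mmp13, Lox, and Loxl1), among 14.5% of all genes, and Mmp14 fell, among 13.6%. In WSB/EiJ, Mmp13 and Mmp19 rose, among 4.97%, and Mmp14 fell, among 3.97%. In DBA/2J, Mmp19 rose, among 10.2%, and Mmp14 fell, among 7.77%, so that the share of members called was about that of all genes. In CAST/EiJ, Mmp19 alone rose, among 9.77%, and 0 members fell, among 9.73%. At an unadjusted p below 0.05, 1 member was lower in CAST/EiJ, with edgeR 0, and with DESeq2 1.

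In A/J, 0 members rose and 0 fell by limma-voom, where 4.39% of all genes rose and 4.64% fell. At an unadjusted p below 0.05, 4 members were higher and 0 lower. With edgeR and with DESeq2, 2 members (Timp1 and Mmp13) rose in A/J. The heat map of diet effects shows these values for every gene and strain.

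**Figure D1:**
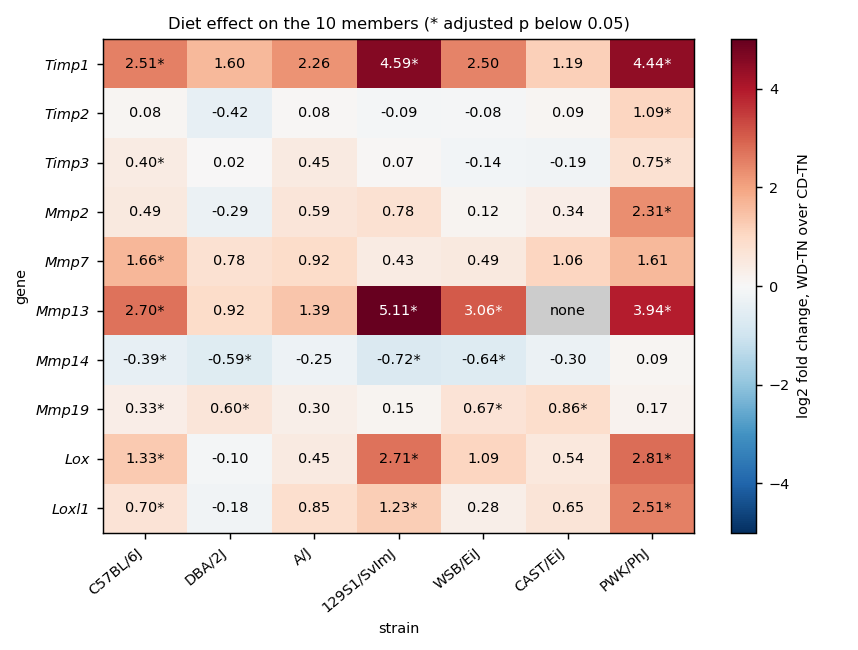
Log2 fold change of WD-TN over CD-TN for each of the 10 genes (rows) in each strain (columns), from the limma-voom fit over 93 mice. Red cells are higher and blue cells lower on WD-TN, and a star marks an adjusted p below 0.05. Timp1 and Mmp13 hold the largest values, up to 5.11 in 129S1/SvImJ, Mmp14 is the only row with stars on negative values, and the grey cell is Mmp13 in CAST/EiJ, with 1 read in all its mice and no fold change.

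PWK/PhJ had a median log2 fold change of 1.96 over the 10 members. The median was 0.60 in 129S1/SvImJ, then 0.59 (C57BL/6J), 0.52 (A/J), 0.44 (CAST/EiJ, or 0.54 over 9 members without Mmp13), 0.39 (WSB/EiJ), and −0.04 (DBA/2J). The median of all genes tested lay between −0.01 and 0.02 in each strain. Groups that did not overlap gave a further description. All WD-TN mice lay above or below all CD-TN mice for 6 members in 129S1/SvImJ, where 16.4% of all genes did so, and for 6 in PWK/PhJ, where 12.6% did. The number was 3 in A/J (8.08% of all genes), 3 in WSB/EiJ (4.36%), 2 in DBA/2J (7.28%), 0 in CAST/EiJ (2.23%), and 0 in C57BL/6J (1.78%).

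The diet effects differed between the strains for 9 of the 10 members in an F test over the 7 strains, as for 37.5% of all genes tested. Mmp7 was the exception, with an adjusted p of 0.94 in limma's F test. The PWK/PhJ response was the one that most often stood off from the rest: for 8 members it was set off from the average effect of the other 6 strains (limma-voom contrast, adjusted p below 0.05), as for 16.3% of all genes. These were Timp1, Timp2, Timp3, Mmp2, Mmp13, Mmp14, Lox, and Loxl1. The same comparison called 2 members in CAST/EiJ (Timp3 and Mmp19, with 14.5% of all genes), 1 in DBA/2J (Timp2, with 7.77%), and 1 in 129S1/SvImJ (Mmp13, with 6.28%). It called 0 in C57BL/6J (4.69% of all genes), 0 in WSB/EiJ (0.947%), and 0 in A/J (0.466%), and edgeR and DESeq2 also called 0 in these 3 strains. At an unadjusted p below 0.05 the limma-voom counts there were 0, 2, and 1.

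**Figure D2:**
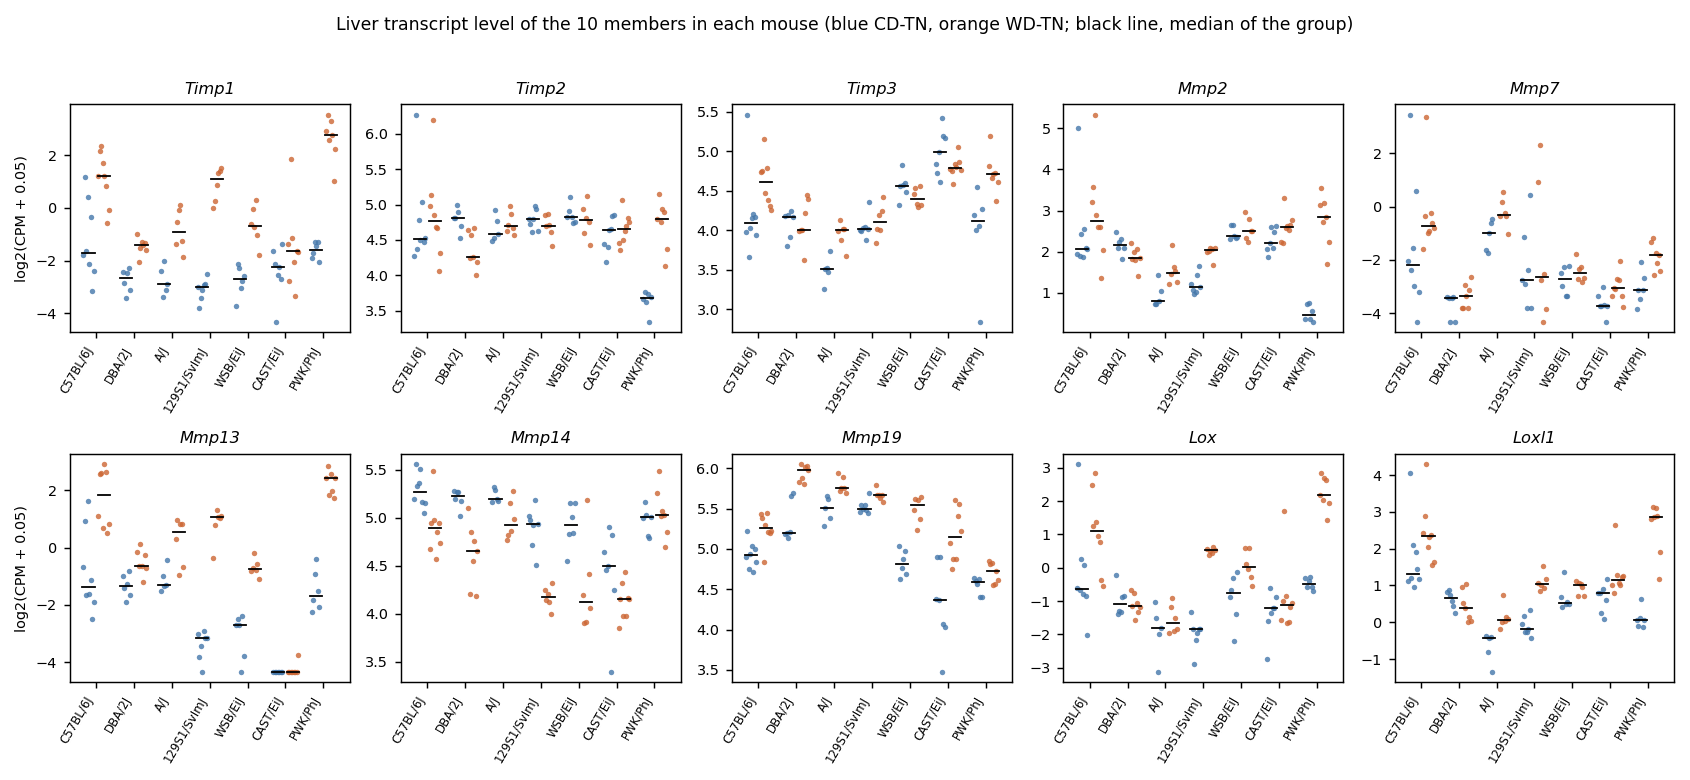
Level of each member in every mouse, as log2 of CPM plus 0.05, by strain, with CD-TN in blue, WD-TN in orange, and the median of each group as a black line. The y axes differ between panels. In PWK/PhJ the orange points of Timp1, Timp2, Mmp2, Mmp13, Lox, and Loxl1 lie above all blue points, and Mmp13 sits at the bottom of its panel in CAST/EiJ on both diets.

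Timp1, the inducible inhibitor that activated stellate cells and macrophages are known to make, had the largest rise of the 3 TIMPs among the members. In PWK/PhJ it went from 0.190 CPM in the lowest, 0.284 in the median, and 0.362 in the highest CD-TN mouse to 1.99, 6.75, and 11.5 CPM on WD-TN. The ranges of the 2 diets were far apart. The means were 0.283 ± 0.0725 CPM (SD, n = 6) and 6.85 ± 3.14 CPM (SD, n = 7), and limma-voom gave a log2 fold change of 4.44 ± 0.56 (SE, adjusted p = 1.1e-09).

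In 129S1/SvImJ, Timp1 had 0.0210 CPM in the lowest, 0.0738 in the median, and 0.126 in the highest CD-TN mouse, which is 1 to 6 reads. On WD-TN it had 0.936, 2.12, and 2.79 CPM, with a log2 fold change of 4.59 ± 0.78 (SE, adjusted p = 3.5e-06 in limma-voom). In C57BL/6J the CD-TN mice had 0.0633, 0.252, and 2.22 CPM and the WD-TN mice 0.619, 2.26, and 5.09 CPM. Here the groups overlapped, 5 of the 8 WD-TN mice lay above all CD-TN mice, and the log2 fold change was 2.51 ± 0.48 (SE, adjusted p = 2.7e-05).

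In the other strains Timp1 missed the threshold of limma-voom, although the diets were often fully separated. All WD-TN mice lay above all CD-TN mice in DBA/2J, A/J, and WSB/EiJ. The 5 A/J mice on CD-TN had 0.0458, 0.0667, 0.0863, 0.139, and 0.195 CPM, and the 6 on WD-TN had 0.228 to 1.02 CPM with a median of 0.501. The log2 fold changes were 1.6 in DBA/2J (adjusted p = 0.21), 2.26 in A/J (0.11), and 2.5 in WSB/EiJ (0.055). Timp1 had at most 9 reads in any CD-TN mouse of the 3 strains. DESeq2 called Timp1 in all 3, and edgeR in A/J and WSB/EiJ. Leaving out WSB/EiJ WD-TN replicate 6 also brought the limma-voom value of that strain past the threshold (2.73, adjusted p = 0.036).

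In CAST/EiJ 1 mouse decided the size of the Timp1 difference. CD-TN mice had 0 to 0.336 CPM, 7 of the 8 WD-TN mice 0.0490 to 0.403 CPM, and WD-TN replicate 3 had 3.54 CPM. The log2 fold change was 1.19 with all mice (adjusted p = 0.34) and 0.65 without that mouse (adjusted p = 0.67). EdgeR and DESeq2 gave 1.95 with all mice and called it (adjusted p = 0.011 and 0.0044). In the same mouse the 6 markers of activated stellate cells or myofibroblasts summed to 259 CPM, against 37.3 to 52.5 CPM in the other 7, and the 8 markers of mesothelial cells or portal fibroblasts to 45.7 CPM, against 11.8 to 16.9 CPM. Their part in the Timp1 value was not tested.

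On WD-TN the strains stood, by median Timp1 from the lowest to the highest, in the order CAST/EiJ, DBA/2J, A/J, WSB/EiJ, 129S1/SvImJ, C57BL/6J, and PWK/PhJ. Each strain overlapped the next in this order. The level differed between the strains on WD-TN (adjusted p = 2.8e-17 in limma's F test), and on CD-TN the test was not passed (adjusted p = 0.083).

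Timp2 is the inhibitor that, bound to Mmp14 at the cell surface, takes part in the activation of pro-Mmp2. PWK/PhJ mice on CD-TN had 10.1, 12.8, and 13.5 CPM, below every CD-TN mouse of the other strains, of which the lowest, a CAST/EiJ mouse, had 18.2 CPM. On WD-TN the PWK/PhJ mice had 17.5, 27.8, and 35.3 CPM, inside the range of the other strains. The diets did not overlap, and the log2 fold change was 1.09 ± 0.20 (SE, adjusted p = 9.2e-06 in limma-voom). It exceeded the mean diet effect of the other 6 strains by 1.15 (SE 0.21, adjusted p = 5.5e-05).

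In the remaining strains the log2 fold change of Timp2 lay between −0.42 in DBA/2J (adjusted p = 0.11) and 0.09 in CAST/EiJ (0.80). The DBA/2J effect minus the average of the other 6 was −0.61 (SE 0.20, adjusted p = 0.044), and this call was lost in 8 of the 13 fits that left out 1 DBA/2J mouse. The level of Timp2 differed between strains on CD-TN (adjusted p = 3.6e-07 in limma's F test) and did not pass on WD-TN (0.17). Its order on CD-TN began with PWK/PhJ, separated from all others by a gap, and the remaining 6 strains overlapped their neighbours.

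Timp3, the TIMP that is bound to the matrix and also blocks ADAM proteases, rose in PWK/PhJ and C57BL/6J by smaller amounts. PWK/PhJ mice had 7.12, 17.4, and 23.3 CPM on CD-TN and 20.7, 26.2, and 36.7 CPM on WD-TN, and 6 of the 7 WD-TN mice lay above all CD-TN mice. The log2 fold change was 0.75 ± 0.16 (SE, adjusted p = 0.00016 in limma-voom). In C57BL/6J it was 0.40 ± 0.14 (SE, adjusted p = 0.026), with edgeR 0.33 (0.094), and without the pair of mice that stood apart 0.52 (0.00075).

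CAST/EiJ had the highest median of Timp3 on both diets, 31.8 CPM on CD-TN and 27.6 CPM on WD-TN, and A/J the lowest on CD-TN. The 5 A/J mice on CD-TN had 9.48, 11.1, 11.4, 11.5, and 13.3 CPM, all below the 129S1/SvImJ mice next in order. A second gap on CD-TN lay between DBA/2J and WSB/EiJ. The CAST/EiJ diet effect was −0.19, and its contrast with the other 6 strains −0.44 (SE 0.16, adjusted p = 0.048 in limma-voom).

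Mmp13, the main interstitial collagenase of rodents, had the largest log2 fold change of the members. In 129S1/SvImJ the CD-TN mice had at most 4 reads, with 0, 0.0631, and 0.0826 CPM in the lowest, median, and highest mouse. The WD-TN mice had 0.728, 2.01, and 2.44 CPM, a log2 fold change of 5.11 ± 0.74 (SE, adjusted p = 1.1e-07 in limma-voom). The groups did not overlap, and the effect exceeded the mean of the other 6 strains by 3.09 (SE 0.80, adjusted p = 0.010).

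PWK/PhJ mice had 0.161, 0.264, and 0.709 CPM of Mmp13 on CD-TN and 3.22, 5.25, and 7.08 CPM on WD-TN, without overlap (3.94 ± 0.48 SE, adjusted p = 3.4e-10). In WSB/EiJ the values were 0, 0.104, and 0.142 CPM and then 0.421, 0.550, and 0.823 CPM, also without overlap (3.06 ± 0.82 SE, adjusted p = 0.0079). C57BL/6J had 0.127, 0.338, and 3.04 CPM on CD-TN and 1.38, 3.99, and 7.38 CPM on WD-TN (2.7 ± 0.37 SE, adjusted p = 2e-08). There, 4 of the 8 WD-TN mice lay above all CD-TN mice, and the highest CD-TN mouse was not the one that stood apart in other members.

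In A/J the 5 CD-TN mice had 0.300, 0.348, 0.356, 0.458, and 0.690 CPM of Mmp13 and the WD-TN mice 0.460 to 1.91 CPM with a median of 1.44. The limma-voom log2 fold change of 1.39 missed the threshold (SE 0.55, adjusted p = 0.099), while edgeR (1.54, 0.029) and DESeq2 (1.56, 0.022) called it. In DBA/2J 6 of the 7 WD-TN mice lay above all CD-TN mice, and the log2 fold change was 0.92 (adjusted p = 0.27).

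Mmp13 reads were close to absent in CAST/EiJ. The 7 CD-TN mice had 0 reads of 299136256 on genes, and the 8 WD-TN mice had 1 read of 329583279. In a single mouse, 0 reads allow a level of up to 0.0685 to 0.0809 CPM (3 reads, counting error only). In every other strain all WD-TN mice had at least 0.389 CPM. These reads give no fold change in CAST/EiJ, although the strain enters the mean of the other 6 to which 129S1/SvImJ and PWK/PhJ were compared. Of the reads of this strain 10.8% on CD-TN and 13.3% on WD-TN were unmapped, more than in any other strain, and their part in the low Mmp13 level was not tested.

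Mmp2, a gelatinase known from stellate cells and fibroblasts, rose in PWK/PhJ alone when all mice were kept. It had 1.18, 1.33, and 1.63 CPM on CD-TN and 3.20, 7.12, and 11.6 CPM on WD-TN, without overlap, and the log2 fold change was 2.31 ± 0.44 (SE, adjusted p = 1.8e-05 in limma-voom). PWK/PhJ thus had the lowest median of the 7 strains on CD-TN and the highest on WD-TN. Its neighbour on CD-TN, A/J, overlapped it narrowly, with 1.62, 1.62, 1.69, 2.03, and 2.65 CPM. The diet effect of PWK/PhJ exceeded the mean of the other 6 by 1.97 (SE 0.46, adjusted p = 0.0015).

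In 129S1/SvImJ all WD-TN mice (3.16 to 4.24 CPM of Mmp2) lay above all CD-TN mice (1.91 to 3.07 CPM), with a log2 fold change of 0.78 (adjusted p = 0.15). With the C57BL/6J pair left out of the fit, whose spread is shared by all groups, it was 0.79 with an adjusted p of 0.0096. In C57BL/6J itself Mmp2 changed by 0.49 with all mice (adjusted p = 0.19), by 0.52 without the pair (0.030), by 0.88 without CD-TN replicate 2 alone (0.0041), and by 0.70 without WD-TN replicate 7 (0.032). The means by cohort of C57BL/6J mice were 13.1 and 14.9 CPM on CD-TN and WD-TN in cohort 1 and 4.61 and 4.2 CPM in cohort 2. Without the pair, both of cohort 1, the cohort 1 means were 3.72 CPM in 2 CD-TN mice and 8.6 CPM in 4 WD-TN mice, a ratio of 2.31 in place of 1.13.

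Mmp14, the membrane-bound protease that activates pro-Mmp2 and cuts fibrillar collagen at the cell surface, was the only member that fell, and it fell in 4 strains. In 129S1/SvImJ it had 22.7, 30.5, and 36.3 CPM on CD-TN and 15.9, 18.0, and 19.9 CPM on WD-TN, without overlap (−0.72 ± 0.15 SE, adjusted p = 8.5e-05 in limma-voom). The log2 fold change was −0.64 ± 0.16 in WSB/EiJ (adjusted p = 0.0029), −0.59 ± 0.14 in DBA/2J (0.0016), and −0.39 ± 0.13 in C57BL/6J (0.013). In WSB/EiJ 5 of the 6 WD-TN mice lay below all CD-TN mice, while replicate 4, at 36.4 CPM, lay above them. Fitted alone, WSB/EiJ gave the same log2 fold change with an adjusted p of 0.058.

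In PWK/PhJ, Mmp14 had 27.6, 32.1, and 35.8 CPM on CD-TN and 25.8, 32.7, and 45.0 CPM on WD-TN (0.09 ± 0.14 SE, adjusted p = 0.67). This diet effect was above the mean of the other 6 strains by 0.58 (SE 0.15, adjusted p = 0.0049). In A/J the 5 CD-TN mice had 35.9, 36.2, 36.7, 39.1, and 39.9 CPM and 5 of the 6 WD-TN mice were lower (−0.25, adjusted p = 0.33). CAST/EiJ missed the threshold with all mice (−0.30, adjusted p = 0.14), and passed it without CD-TN replicate 5 (−0.47, adjusted p = 0.012). Of the 7 hepatocyte markers, 5 fell in PWK/PhJ, C57BL/6J, and 129S1/SvImJ, 4 in A/J, 3 in DBA/2J and WSB/EiJ, and 2 in CAST/EiJ. Of all genes tested, between 3.97% (WSB/EiJ) and 14.5% (PWK/PhJ) fell. In DBA/2J 1 hepatocyte marker, Asgr1, rose (0.27, adjusted p = 0.019 in limma-voom). The part of the hepatocyte markers in the Mmp14 differences was not tested.

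Mmp19, a protease that cuts basement membrane proteins, rose in 4 strains by modest amounts, most in CAST/EiJ. CAST/EiJ mice had 11.1, 20.5, and 29.9 CPM on CD-TN and 26.9, 35.4, and 48.7 CPM on WD-TN, and 5 of the 8 WD-TN mice lay above all CD-TN mice. The log2 fold change was 0.86 ± 0.11 (SE, adjusted p = 1.3e-08 in limma-voom), which exceeded the mean of the other 6 by 0.50 (SE 0.12, adjusted p = 0.0029). Without WD-TN replicate 3 it was 0.91 (7.3e-09).

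WSB/EiJ mice had 24.6, 28.2, and 32.9 CPM of Mmp19 on CD-TN and 37.6, 46.7, and 50 CPM on WD-TN (0.67 ± 0.12 SE, adjusted p = 4e-05). DBA/2J mice had 35.2, 36.7, and 51.6 CPM and 55.8, 63.0, and 66.1 CPM (0.60 ± 0.11 SE, adjusted p = 4.7e-05). Neither strain had overlapping groups. In C57BL/6J the change was 0.33 ± 0.10 (SE, adjusted p = 0.012). In A/J the diets were also separated, with 39.0, 41.7, 45.5, 49.2, and 50.4 CPM on CD-TN and 51.5 to 61.6 CPM on WD-TN, but 0.30 ± 0.12 (SE) missed the threshold (adjusted p = 0.12).

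In PWK/PhJ, where 7 members rose, Mmp19 changed by 0.17 ± 0.12 (SE, adjusted p = 0.30). Its median on WD-TN, 26.5 CPM, was the lowest of the 7 strains, and that of DBA/2J, 63.0 CPM, the highest. Each strain overlapped the next in that order.

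Lox and Loxl1 start the crosslinking of collagen and elastin. In PWK/PhJ, Lox had 0.570, 0.659, and 0.772 CPM on CD-TN and 2.64, 4.53, and 7.13 CPM on WD-TN. Loxl1 had 0.866, 0.988, and 1.50 CPM and then 2.19, 7.22, and 8.72 CPM. Neither gene overlapped between the diets, and the log2 fold changes were 2.81 ± 0.41 for Lox (SE, adjusted p = 7.5e-08 in limma-voom) and 2.51 ± 0.38 for Loxl1 (1.9e-07). Both exceeded the mean of the other 6 strains, Lox by 1.81 (SE 0.48, adjusted p = 0.0050) and Loxl1 by 1.92 (SE 0.42, adjusted p = 0.00062).

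In 129S1/SvImJ the WD-TN mice were close together in Lox, with 1.24 to 1.48 CPM, above 0.0851 to 0.345 CPM on CD-TN (2.71 ± 0.59 SE, adjusted p = 0.00023). Loxl1 rose there by 1.23 ± 0.43 (SE, adjusted p = 0.024), from 0.695 to 1.22 CPM on CD-TN to 1.75 to 2.84 CPM on WD-TN. Without WD-TN replicate 4 it was 1.14, with an adjusted p of 0.055. In A/J the 5 CD-TN mice had 0.345, 0.526, 0.695, 0.712, and 0.716 CPM of Loxl1, below all WD-TN mice (0.830 to 1.63 CPM), and 0.85 missed the threshold (adjusted p = 0.40). DBA/2J had log2 fold changes of −0.10 for Lox (SE 0.60, adjusted p = 0.95) and −0.18 for Loxl1 (SE 0.43, adjusted p = 0.84).

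In C57BL/6J, Lox rose by 1.33 ± 0.37 (SE, adjusted p = 0.0038) and Loxl1 by 0.70 ± 0.25 (SE, adjusted p = 0.031) in limma-voom. EdgeR gave 0.76 (adjusted p = 0.18) and 0.55 (0.16). Without the pair that stood apart, the mean of Lox was 0.655 ± 0.324 CPM on CD-TN and 2.18 ± 1.63 CPM on WD-TN (SD, 7 and 7 mice), and that of Loxl1 2.73 ± 0.899 and 4.67 ± 1.51 CPM (SD). The limma-voom values were then 1.59 for Lox (adjusted p = 0.00014) and 0.78 for Loxl1 (0.0019).

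Leaving out single C57BL/6J mice changed some of these calls. The Timp3 call was lost without any 1 of CD-TN replicates 1, 3, and 8 and WD-TN replicates 3 and 5 (0.32 to 0.38). The Loxl1 call was lost without any 1 of CD-TN replicates 1, 3, 5, 7, and 8 and WD-TN replicates 2 and 3, with 0.41 (adjusted p = 0.20) without WD-TN replicate 3. The Mmp7 call was lost without any 1 of CD-TN replicates 1, 3, 4, 5, 7, and 8 and WD-TN replicates 2, 3, and 6, with values down to 1.04 (adjusted p = 0.21). Timp1, Mmp13, Mmp14, Mmp19, and Lox kept their calls without any 1 of the 16 mice. In CAST/EiJ, Lox went from 0.54 to 0.14 and Loxl1 from 0.65 to 0.44 without WD-TN replicate 3, and neither passed the threshold with or without that mouse.

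Mmp7, or matrilysin, is known in liver from bile duct cells. It had at most 10 reads in any DBA/2J, WSB/EiJ, or CAST/EiJ mouse. In C57BL/6J limma-voom gave 1.66 ± 0.65 (SE, adjusted p = 0.047), with medians of 0.170 CPM on CD-TN and 0.564 CPM on WD-TN. The means there were 1.63 ± 3.76 and 1.77 ± 3.44 CPM (SD, 8 and 8 mice), a ratio of 1.09, and edgeR gave 0.11 (adjusted p = 0.93). Without the pair that stood apart the means were 0.316 ± 0.505 and 0.556 ± 0.176 CPM (SD, 7 and 7 mice), a ratio of 1.76, and limma-voom gave 1.94 (adjusted p = 0.011). In cohort 1 the mean was 3.73 CPM on CD-TN and 2.45 CPM on WD-TN with all mice, and 0.17 and 0.492 CPM without the pair. In cohort 2, which holds neither mouse, it was 0.375 and 0.641 CPM, so the direction of Mmp7 differed between the cohorts only with the pair included.

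The mice highest in Mmp7 were also high in Krt19, a keratin of bile duct cells that is among the 7 cholangiocyte markers. In the C57BL/6J pair that stood apart, Mmp7 was 10.9 CPM on CD-TN and 10.3 CPM on WD-TN and Krt19 10.5 and 8.66 CPM, where no other mouse of the strain had over 1.44 CPM of Mmp7 or 2.24 CPM of Krt19. In 129S1/SvImJ, CD-TN replicate 6 and WD-TN replicates 1 and 2 had 1.30, 1.83, and 4.94 CPM of Mmp7 and 3.60, 3.93, and 11.7 CPM of Krt19. The other 10 mice of that strain had at most 0.399 CPM of Mmp7 and 1.43 CPM of Krt19. Summed over the 7 cholangiocyte markers, WD-TN replicates 1 and 2 had 36.6 and 51.4 CPM, above the other WD-TN mice (26.8 to 30.4 CPM). CD-TN replicate 6 had 37.4 CPM, inside the range of the other CD-TN mice (26.6 to 38.9 CPM). Without WD-TN replicate 1 or 2 the log2 fold change of Mmp7 in 129S1/SvImJ turned from 0.43 to −0.22 or −0.53, none of them past the threshold.

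A/J had the highest median of Mmp7 on both diets, and most of its mice were low in Krt19. The 5 CD-TN mice had 0.252, 0.277, 0.456, 0.601, and 0.669 CPM and the WD-TN mice 0.436 to 1.40 CPM. Krt19 was at most 1.02 CPM in 10 of the 11 A/J mice, and the 1 with 5.03 CPM had 0.669 CPM of Mmp7, the highest of the 5 CD-TN values. The part of bile duct cells in the Mmp7 values was not tested.

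**Figure D3:**
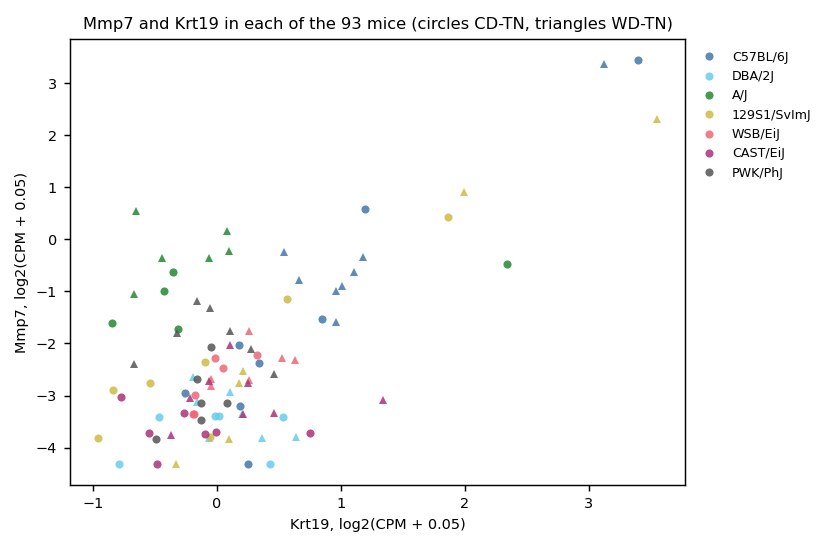
Mmp7 (y axis) against Krt19 (x axis) in each of the 93 mice, both as log2 of CPM plus 0.05, coloured by strain, with circles for CD-TN and triangles for WD-TN. The 3 mice at the upper right, 2 of C57BL/6J and 1 of 129S1/SvImJ, had 4.94 to 10.9 CPM of Mmp7, and most A/J mice lie high in Mmp7 at low Krt19.

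In the C57BL/6J mice that stood apart, cell type markers moved along with the members. In CD-TN replicate 2 the 6 markers of activated stellate cells or myofibroblasts summed to 458 CPM (54.3 to 117 CPM in the other 7 mice), the 8 markers of mesothelial cells or portal fibroblasts to 83.1 CPM (11.3 to 18.2), the 7 cholangiocyte markers to 102 CPM (33.6 to 50.4), and the 6 markers of recruited macrophages to 295 CPM (34.9 to 73.4). In WD-TN replicate 3 the same sums were 754 CPM (92.3 to 440), 69.2 CPM (14 to 28), 75.1 CPM (30.9 to 38.3), and 225 CPM (38.7 to 122). Of the mesothelial cell or portal fibroblast markers, Eln had 54.0 and 43.2 CPM in these mice, where no other mouse of the strain had over 9.02 CPM. Msln (1.71 and 1.98 CPM) and Upk3b (2.69 and 2.74 CPM) lay inside the range of the other mice of their groups. The 5 sinusoidal endothelial markers summed to 169 and 163 CPM and the 6 Kupffer cell markers to 221 and 332 CPM, below the other mice of both groups. The hepatocyte sums, 113000 and 72400 CPM, lay inside the range of the other mice. Their part in the member values was not tested.

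**Figure D4:**
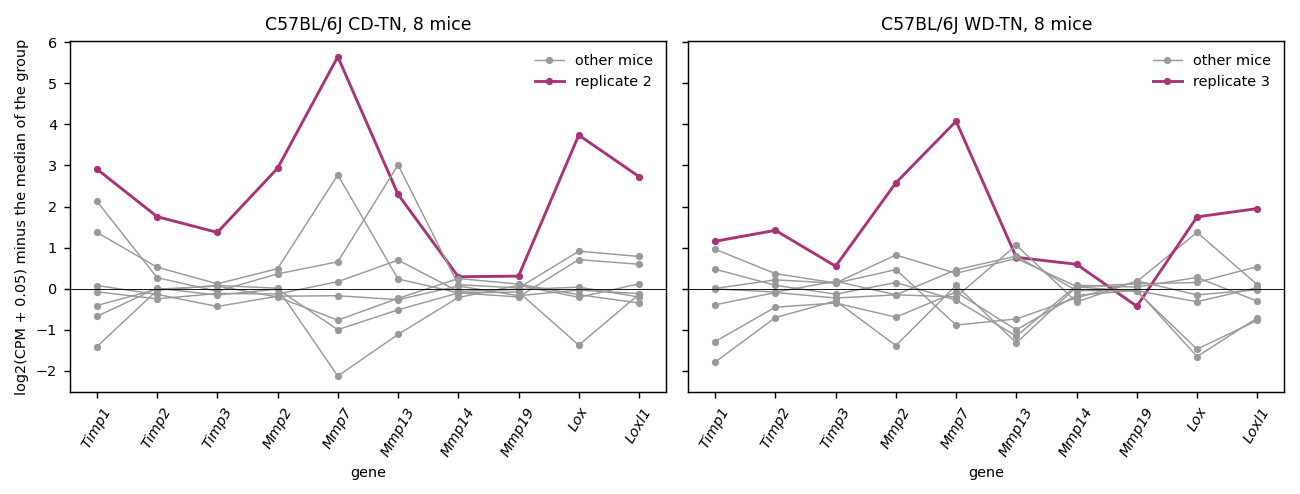
The 10 members in each C57BL/6J mouse, as log2 of CPM plus 0.05 minus the median of its group, with CD-TN mice on the left and WD-TN mice on the right. Each line is 1 mouse, and the coloured lines are CD-TN replicate 2 and WD-TN replicate 3. Both lie above all other mice of their group in Timp1, Timp2, Timp3, Mmp2, Mmp7, Mmp14, Lox, and Loxl1 and within the range of the others in Mmp13. In Mmp19, CD-TN replicate 2 lies above and WD-TN replicate 3 below all other mice of its group.

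Cell type markers also moved with diet in PWK/PhJ, C57BL/6J, and 129S1/SvImJ, the strains with the highest numbers of members that rose by limma-voom. With edgeR and with DESeq2, C57BL/6J and WSB/EiJ each had 3 members that rose, so this grouping depends on the test. In PWK/PhJ 4 of the 6 markers of activated stellate cells or myofibroblasts rose, with sums of 26.3 to 36.9 CPM on CD-TN and 104 to 461 CPM on WD-TN, and all 6 markers of recruited macrophages rose, with sums of 12 to 17.6 CPM and 53.7 to 110 CPM. In 129S1/SvImJ 3 of the first and 5 of the second list rose, with sums of 33 to 47.9 CPM against 95.3 to 159 CPM and of 16.2 to 33.4 CPM against 45.2 to 79.9 CPM. In C57BL/6J 4 of the first list rose, with sums of 54.3 to 458 CPM on CD-TN and 92.3 to 754 CPM on WD-TN. Of the second list 5 rose and 1 fell there, with sums of 34.9 to 295 CPM and 38.7 to 225 CPM. The diets overlapped in both sums. Of all genes tested, 15.1% rose and 14.5% fell in PWK/PhJ, 14.5% and 13.6% in 129S1/SvImJ, and 14.3% and 11.9% in C57BL/6J. Of the 8 markers of stellate cells in general, 2 rose and 1 fell in PWK/PhJ, and 1 rose and 1 fell in C57BL/6J and in 129S1/SvImJ. Of the 7 cholangiocyte markers, 4 rose in PWK/PhJ (sums of 31.6 to 49.1 CPM and 38 to 58.8 CPM), 0 in 129S1/SvImJ, and 0 in C57BL/6J, where 1 fell. Of the 7 tested markers of mesothelial cells or portal fibroblasts, 4 rose in 129S1/SvImJ (8.64 to 13 CPM and 15.4 to 20.4 CPM), 1 in PWK/PhJ, and 1 in C57BL/6J. Of the 5 neutrophil markers, 3 rose in PWK/PhJ (1.65 to 3.42 CPM and 2.82 to 4.84 CPM), 3 in 129S1/SvImJ (0.617 to 0.923 CPM and 2.52 to 5.12 CPM), and 0 in C57BL/6J. In DBA/2J, where 1 member rose, the sums of the activated stellate cell or myofibroblast markers were 50.7 to 65.1 CPM on CD-TN and 55.7 to 91.8 CPM on WD-TN. Markers also rose where fewer members did by limma-voom. In WSB/EiJ, with 2 members up by limma-voom, 4 of the 6 recruited macrophage markers rose (8.24 to 13.7 CPM and 13.6 to 53.9 CPM). Of all genes, 4.97% rose in this strain. The activated stellate cell or myofibroblast list had 0 up there. In A/J, with 0 members up by limma-voom, 2 of the former list and 1 of the latter rose, among 4.39% of all genes. In DBA/2J and CAST/EiJ 0 of either list rose. No marker of the stellate cell and recruited macrophage lists had a median of 0 reads in any group, and 1 neutrophil marker did in both groups of C57BL/6J and 129S1/SvImJ. Their part in the rise of the members was not tested, nor was that of the unmapped reads, which went from 3.50% on CD-TN to 7.88% on WD-TN in PWK/PhJ.

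Mice of each strain came from 2 or 3 cohorts. C57BL/6J and PWK/PhJ mice came from cohorts 1 and 2 and DBA/2J mice from cohorts 4 and 5. WSB/EiJ mice came from cohorts 6 and 7, which held no other strain. Differences in level or diet effect between strains of different cohorts cannot be told apart from differences between cohorts. Of the 26 differences called between diets, 25 had the same direction in every cohort with both diets, as did 52 of 53 cohort comparisons. The exception was Mmp7 in C57BL/6J with all mice kept. The calls were made on these same mice, so the counts are no independent test. Some cohorts were small, with 1 CD-TN mouse in cohort 1 of CAST/EiJ. In PWK/PhJ, Timp1 was 29.7 times as high on WD-TN in cohort 1 and 20.0 times in cohort 2, and Lox 7.54 and 7.30 times.

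Most members differed in level between the strains on a given diet, as nearly all genes did. On CD-TN 9 of the 10 passed the F test, Timp1 being the exception, where 93.7% of all genes passed. On WD-TN 9 passed, Timp2 being the exception, where 93.9% of all genes passed. When strains were ordered by median, neighbours overlapped in all 6 pairs on both diets for Timp1, Mmp7, Mmp19, Lox, and Loxl1. Gaps were found on CD-TN in 2 of 6 pairs for Timp3 and in 1 for Timp2, Mmp2, Mmp13, and Mmp14, and on WD-TN in 1 for Mmp2 and Mmp13.

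Over the 14 group means of log2 CPM, Timp1 and Lox were the most alike of the members (Pearson's r = 0.91), followed by Lox and Loxl1 (0.873), Mmp2 and Loxl1 (0.827), and Timp1 and Mmp13 (0.805). Timp3 and Mmp19 had the lowest value (−0.558). Among all other genes tested, the pattern most like that of Timp1 was Col1a1, a chain of type I collagen (0.964), followed by Chst11 and Myo5a. For Mmp13 it was Otulinl (0.969), then Marcks and Gm21188. For Loxl1 it was the procollagen-trimming protease Adamts2 (0.956), then Aebp1 and Adamtsl2, and for Lox it was Zfyve28 (0.948), then Zfp469 and F13a1.

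For the other members the closest genes were Pam, BC034090, and Adamts2 for Mmp2 (0.926 for the first), Tbccd1, Phtf2, and Slc25a40 for Mmp19 (0.939), and Stard9, Zfp993, and Slc24a3 for Mmp7 (0.931). They were Atp6v0e, Cspg4, and Flnc for Timp3 (0.912), Sc5d, Tjp1, and Tcea2 for Mmp14 (0.910), and Epha7, Gm45380, and Bmpr2 for Timp2 (0.847). The 14 points share strains and diets, and the genes were picked for their high values among 19110.

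The other genes of the MMP, TIMP, and lysyl oxidase families were looked at next. Of the 22 listed, 16 were tested. Among them 12 rose in PWK/PhJ (15.1% of all genes), 7 in C57BL/6J (14.3%), where Loxl4 fell, and 7 in 129S1/SvImJ (14.5%). At most 2 rose in any other strain. PWK/PhJ had a median log2 fold change of 1.31 over these genes, C57BL/6J of 0.53, and 129S1/SvImJ of 1.19. The other medians were 0.52 (A/J), 0.42 (WSB/EiJ), 0.35 (CAST/EiJ), and 0.07 (DBA/2J). The largest changes in PWK/PhJ were those of Mmp27, from 0.455 to 18.6 CPM (5.13 ± 0.63 SE, adjusted p = 3.2e-10 in limma-voom), Timp4, from 0.00687 to 0.468 CPM (4.88 ± 0.64 SE, 2.8e-09), and the macrophage elastase Mmp12, from 1.17 to 23.9 CPM (4.54 ± 0.72 SE, 4.4e-07). Mmp27, whose SD in PWK/PhJ on WD-TN was 12.2 CPM, also rose in C57BL/6J (1.36) and CAST/EiJ (1.245). Mmp12 also rose in C57BL/6J (2.64), A/J (3.22), 129S1/SvImJ (6.25), and WSB/EiJ (4.21). In C57BL/6J its means were 12.6 ± 23.5 CPM on CD-TN and 26.8 ± 15.9 CPM on WD-TN (SD). The 6 genes not tested, Mmp1a, Mmp1b, Mmp10, Mmp16, Mmp20, and Mmp21, had at most 10 reads in any mouse.

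Genes that activate, restrain, or clear MMPs moved in both directions. Of 16 tested, 8 rose and 3 fell in C57BL/6J, 7 rose and 3 fell in 129S1/SvImJ, and 7 rose and 4 fell in PWK/PhJ. Of all genes tested, 14.3%, 14.5%, and 15.1% rose and 11.9%, 13.6%, and 14.5% fell in these strains. The share of the list that fell was near that of all genes in C57BL/6J and 129S1/SvImJ. The tissue plasminogen activator Plat (2.37), the matrix glycoprotein Thbs1 (2.11), and the urokinase gene Plau (2.08) changed most in PWK/PhJ, and Thbs1 (1.85) and Plat (1.39) also rose in C57BL/6J. The spread there was wide. The C57BL/6J means on CD-TN and WD-TN were 2.26 ± 4.43 and 3.16 ± 3.07 CPM for Plat and 3.77 ± 4.91 and 9.00 ± 4.37 CPM for Thbs1 (SD). Reck, a membrane-anchored MMP inhibitor picked after its values were seen, fell in C57BL/6J (−0.86), DBA/2J (−0.74), A/J (−0.69), 129S1/SvImJ (−1.13), and PWK/PhJ (−1.05), rose in CAST/EiJ (0.62), and missed the threshold in WSB/EiJ (0.09).

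Of 20 tested genes for collagen hydroxylation, folding, trimming, and crosslinking, 10 rose and 1 fell in PWK/PhJ and in C57BL/6J, and 7 rose and 1 fell in 129S1/SvImJ. The shares of all genes that rose and fell in these strains are those given above. Adamts2 (2.12), the collagen chaperone Fkbp10 (1.45), and the lysyl hydroxylase Plod2 (1.27) changed most in PWK/PhJ, and the collagen chaperone Serpinh1 (0.81), the prolyl hydroxylase P4ha1 (0.73), and Adamts2 (0.70) in C57BL/6J. Of 18 ADAM and ADAMTS genes, 10 rose in PWK/PhJ, led by Adamts4 (3.05), Adamts12 (2.31), and Adam8 (1.91), and 8 rose in C57BL/6J and in 129S1/SvImJ. In the other 4 strains at most 3 genes of either list rose.

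**Figure D5:**
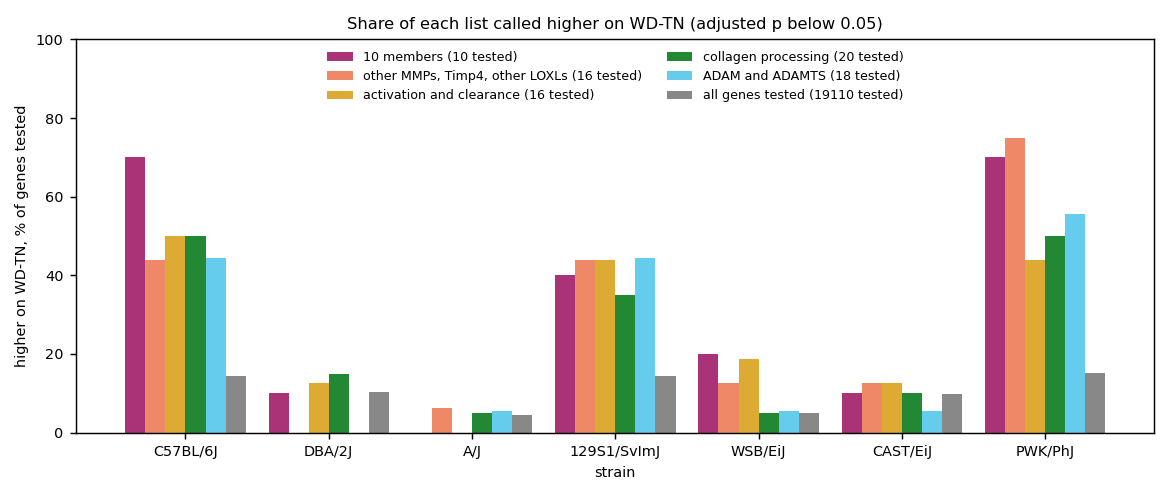
Share of the tested genes of each list that were higher on WD-TN (y axis, % of genes tested, adjusted p below 0.05) in each strain (x axis), with one bar for all genes tested. The members reach 70% in C57BL/6J and PWK/PhJ and 40% in 129S1/SvImJ, where 14.3%, 15.1%, and 14.5% of all genes were higher, and 0% in A/J.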

How the data were processed

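Liver RNA-seq of 93 mice was analysed from the deposited table of read counts per gene. According to the submitters' processing notes, the authors aligned reads with STAR 2.7.1a, and the genome was GRCm38; the annotation release and whether strand was used in counting are not given in the sources used here. The deposited counts were not normalized. The 4 summary lines of reads not given to a gene (1.66% to 14.8% unmapped per mouse) were left out of library sizes and tests, and 0 sample columns belonged to other series.

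Counts were TMM-normalized, filtered with filterByExpr (minimum count 10), and fitted with limma-voom (limma 3.58.1, edgeR 4.0.16, R 4.3.3) with a mean per strain and diet over all mice. P-values were adjusted by Benjamini–Hochberg over 19110 genes within each contrast, with 0.05 as threshold. CPM was computed from library sizes over the tested genes, scaled by TMM factors. Error bars are SD over mice or SE of the fit. The scripts were tested on simulated data. Alternatives were edgeR's quasi-likelihood test, DESeq2 1.42.0 (likelihood ratio tests in place of F tests), RLE and upper-quartile factors, other filters, cohort or RNA integrity number as covariate, sample quality weights, separate fits, and leaving out each of 93 mice.

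The members and the gene lists were chosen with earlier results of these data known. Named beside the members were, of each other list, up to 3 called genes with the largest change in the strain with most calls, and the 3 genes most like each member. A gene that this rule names among those acting on MMPs is counted in its list but not reported here. Intervals and floors cover counting error only.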

Additional observations from a re-analysis of the deposited data

Results flagged for a closer look

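A mouse far from the others of its group was found in 30 of the 139 member and group combinations with 4 to 10 mice and any spread, by the gap between that mouse and the next as a share of the group's range. The cut-off would find about 1 in 20 by chance if the values of a group were normally distributed. CPM values, some from few reads, need not be, so the 30 cannot be set against that rate. The 30 came from 15 mice: C57BL/6J CD-TN replicate 2 and WD-TN replicate 3 gave 6 each, CAST/EiJ WD-TN replicate 3 gave 4, and 129S1/SvImJ CD-TN replicate 7 and A/J WD-TN replicate 3 gave 2 each.

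For Timp1 this was 3.54 CPM in CAST/EiJ WD-TN replicate 3 (next 0.403). For Timp2 these were 77 CPM in C57BL/6J CD-TN replicate 2 (next 32.8), 72.9 CPM in C57BL/6J WD-TN replicate 3 (next 35.1), and 10.1 CPM in PWK/PhJ CD-TN replicate 5 (lowest, next 12.3). For Timp3 these were 44.1 CPM in C57BL/6J CD-TN replicate 2 (next 18.5) and 20.5 CPM in 129S1/SvImJ CD-TN replicate 7 (next 16.5). For Mmp2 these were 32 CPM in C57BL/6J CD-TN replicate 2 (next 5.84), 40 CPM in C57BL/6J WD-TN replicate 3 (next 11.8), 4.41 CPM in A/J WD-TN replicate 3 (next 3.05), 3.16 CPM in 129S1/SvImJ WD-TN replicate 5 (lowest, next 3.91), and 9.81 CPM in CAST/EiJ WD-TN replicate 3 (next 6.77). For Mmp7 these were 10.9 CPM in C57BL/6J CD-TN replicate 2 (next 1.44), 10.3 CPM in C57BL/6J WD-TN replicate 3 (next 0.794), 1.3 CPM in 129S1/SvImJ CD-TN replicate 6 (next 0.399), 4.94 CPM in 129S1/SvImJ WD-TN replicate 2 (next 1.83), and 0.196 CPM in CAST/EiJ WD-TN replicate 6 (next 0.101).

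For Mmp13 this was 0.0241 CPM in CAST/EiJ WD-TN replicate 8 (next 0). For Mmp14 these were 44.9 CPM in C57BL/6J WD-TN replicate 3 (next 31.5) and 36.4 CPM in WSB/EiJ WD-TN replicate 4 (next 21.3). For Mmp19 these were 28.5 CPM in C57BL/6J WD-TN replicate 3 (lowest, next 36.6) and 51.8 CPM in 129S1/SvImJ CD-TN replicate 7 (next 46.8). For Lox these were 8.53 CPM in C57BL/6J CD-TN replicate 2 (next 1.16), 0.807 CPM in DBA/2J CD-TN replicate 1 (next 0.508), and 3.24 CPM in CAST/EiJ WD-TN replicate 3 (next 0.504). For Loxl1 these were 16.5 CPM in C57BL/6J CD-TN replicate 2 (next 4.25), 19.5 CPM in C57BL/6J WD-TN replicate 3 (next 7.29), 1.63 CPM in A/J WD-TN replicate 3 (next 1.05), 2.51 CPM in WSB/EiJ CD-TN replicate 3 (next 1.56), 6.23 CPM in CAST/EiJ WD-TN replicate 3 (next 2.39), and 1.5 CPM in PWK/PhJ CD-TN replicate 4 (next 1.03).

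The diet effect differed between the 7 strains for 9 members by limma's F test, with adjusted p-values in parentheses: Timp1 (0.0046), Timp2 (0.00033), Timp3 (0.0022), Mmp2 (0.0018), Mmp13 (1.9e-05), Mmp14 (0.0091), Mmp19 (0.00057), Lox (0.001), and Loxl1 (0.00044).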

How the results depend on the processing

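Of the 26 differences between diets that were called, 20 kept their direction and their call in every fit run, single mice left out included. RLE and upper-quartile factors and sample quality weights changed none of the 26 calls, and a mean count of at least 50, which dropped Mmp7, none of the remaining 25. EdgeR and DESeq2 lost 4, all in C57BL/6J (Timp3, Mmp7, Lox, and Loxl1). Upper-quartile factors moved the share of calls that were higher from 51.6% to 67.1% in 129S1/SvImJ and from 48.6% to 59.0% in A/J. The cause of these shifts was not tested. Members with few reads, such as Mmp7 and, on CD-TN, Timp1 and Mmp13, are limited by depth. No paired analysis was possible because replicate numbers were given in accession order and do not pair mice.

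Numbers of members that rose changed as follows. In C57BL/6J 5 rose without a count filter, 6 with a mean count of at least 50 and with RNA integrity number, 8 with quality weights and without the pair, 3 with edgeR, with DESeq2, and fitted alone, and 4 with cohort as a covariate, which lost Timp3, Mmp7, and Loxl1. In A/J it was 2 with edgeR and DESeq2 and 4 with quality weights and fitted alone. In CAST/EiJ it was 2 with edgeR and DESeq2, and in DBA/2J 2 with DESeq2 and 3 fitted alone. In WSB/EiJ it was 3 with edgeR, DESeq2, cohort, quality weights, fitted alone, and without the pair. In 129S1/SvImJ it was 5 with quality weights and without the pair and 6 fitted alone, and in PWK/PhJ 8 fitted alone. The number that fell was 2 in DBA/2J with quality weights, fitted alone, and without the C57BL/6J pair, 1 in A/J with quality weights, 1 in CAST/EiJ with DESeq2, and 0 in WSB/EiJ fitted alone. The number of members set off from the average effect of the other 6 strains was, in DBA/2J, 5 with DESeq2, quality weights, and without the pair, and 0 with genes of any count. In 129S1/SvImJ it was 3 with DESeq2 and without the pair, 5 with quality weights, and 2 with cohort. In CAST/EiJ it was 1 with edgeR, upper-quartile factors, cohort, and RNA integrity number, and in PWK/PhJ 7 with edgeR and 9 with quality weights and without the pair. Leaving out the pair was chosen after seeing the data.

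Among the rest of the families, the number that rose was 4 in C57BL/6J with edgeR and DESeq2, 1 in DBA/2J with both, and 4 in CAST/EiJ with edgeR, where 1 fell with both. ADAM and ADAMTS genes that fell numbered 0 in DBA/2J with both and 0 in CAST/EiJ with upper-quartile factors. Activation genes that rose numbered 1 in A/J with DESeq2 and upper-quartile factors.

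Leaving out single mice, the number that rose ranged from 4 to 8 in C57BL/6J and the number that fell from 0 to 1 in CAST/EiJ. The number set off from the other strains ranged from 0 to 1 in C57BL/6J, 1 to 2 in CAST/EiJ, 0 to 1 in DBA/2J, and 6 to 8 in PWK/PhJ. Signs turned only in values that were not called: Timp2 in C57BL/6J (−0.05 with cohort, −0.10 to 0.31 without single mice), Mmp7 in 129S1/SvImJ (−0.53 to 1.27), Lox in DBA/2J (−0.19 to 0.06), and Timp3 in DBA/2J (−0.04 to 0.09).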
